A study of Mus musculus with 6 samples.

Results

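The 6 Fc receptor genes Fcgr1, Fcgr2b, Fcgr3, Fcgr4, Fcer1g and Fcgrt were followed in RNA sequencing values of neutrophils, out of 38739 genes in the table. They were chosen by name, as the mouse receptors for the constant part of IgG, the signalling chain most of them share, and the neonatal Fc receptor, and all 6 were above 0 in every sample. The cells were peritoneal neutrophils of cGAS knockout mice of the C57B/L6 strain, drawn into the cavity by thioglycolate as the methods describe, and kept in culture for 2 h with medium alone (untreated, n = 3) or with lipopolysaccharide (LPS, n = 3), a cell wall component of Gram-negative bacteria, at 500 ng/mL per the labels, where the study's methods state a lower dose. The knockout of Cgas, which encodes a sensor of DNA in the cytosol, was carried by the cells of both groups and no wild-type sample was analysed here. Neither the labels nor the methods say whether the 3 samples of a group came from separate mice or from pooled cells, so the p values measure only the spread between these samples. The comparison asked what LPS changed in neutrophils that lack cGAS.

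Fc receptors let leukocytes sense antibody. Fcgr1, Fcgr3 and Fcgr4 encode activating receptors for IgG, which reach the surface and signal through the common gamma chain, the product of Fcer1g. The tail of that chain holds an ITAM, a motif that kinases of the Src family phosphorylate and that recruits Syk, and in neutrophils this path leads to phagocytosis, degranulation and the oxidative burst. Fcgr2b encodes the inhibitory receptor, whose own tail holds an ITIM that recruits lipid and protein phosphatases. Fcgrt encodes the heavy chain of the neonatal receptor FcRn, which pairs with beta-2-microglobulin in endosomes and returns IgG to the cell surface.

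Fcgr2b, Fcgr4, Fcgr3 and Fcer1g lie within 276 kb of chromosome 1 in GRCm39 (GENCODE M39). Fcgr2b covers chr1:170786186-170804177 on the minus strand, Fcgr4 chr1:170846466-170857330 on the plus strand, Fcgr3 chr1:170878738-170893549 on the minus strand and Fcer1g chr1:171057141-171062219 on the minus strand. Fcgr1 lies apart at chr3:96190225-96201338 and Fcgrt at chr7:44742412-44756819, both on the minus strand. The inhibitory Fcgr2b and the activating Fcgr3 are close relatives, and a stretch of 512 bases of an Fcgr2b transcript matched one of Fcgr3 at 96.3% of bases. The most alike window as long as a sequencing read, 150 bases, is shown because it bears on how reads were assigned to these genes. It lies in exon 4 of both, at chr1:170794092-170794241 in Fcgr2b (transcript ENSMUST00000027966) and at chr1:170881585-170881734 in Fcgr3 (ENSMUST00000164044), in GRCm39 on the minus strand. Both are written 5′ to 3′ along the transcript, and the capitals mark the 2 bases that differ.
Fcgr2b: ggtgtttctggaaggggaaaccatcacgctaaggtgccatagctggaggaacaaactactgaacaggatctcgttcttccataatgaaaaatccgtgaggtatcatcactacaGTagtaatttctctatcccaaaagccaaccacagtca
Fcgr3: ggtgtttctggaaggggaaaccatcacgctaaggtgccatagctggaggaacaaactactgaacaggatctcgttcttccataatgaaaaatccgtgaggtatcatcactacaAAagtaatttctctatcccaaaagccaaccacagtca
These windows were identical at 148 of 150 bases (98.7%), so a read from here can be told apart only by those bases, and how reads were split between Fcgr2b and Fcgr3 is uncertain. Fcgr2b also shared 289 bases at 95.5% identity with a transcript of Gm64270, and no other member shared 150 bases or more at 95% identity with another gene.

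The starts of the 3 activating receptor genes are shown because each holds the core motif of PU.1, a transcription factor of myeloid cells. The sequences are the 130 bases before the start in the RefSeq promoter table (build GRCm38.p6), 5′ to 3′ along the gene. Capitals mark the PU.1 core, which stands in all of them as TTCCTC, the reverse complement of GAGGAA, and in Fcgr1 also a match to the gamma-interferon activated site TTCNNNGAA. The windows are Fcgr1 at chr3:96293970-96294099 (minus strand), Fcgr3 at chr1:171059395-171059524 (minus strand, one of the starts listed for it) and Fcgr4 at chr1:171018796-171018925 (plus strand).
Fcgr1: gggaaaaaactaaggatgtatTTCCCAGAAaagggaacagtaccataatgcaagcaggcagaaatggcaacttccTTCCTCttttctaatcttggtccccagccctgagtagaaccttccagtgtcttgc
Fcgr3: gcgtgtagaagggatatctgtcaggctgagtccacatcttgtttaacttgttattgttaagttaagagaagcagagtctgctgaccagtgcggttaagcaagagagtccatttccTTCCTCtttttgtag
Fcgr4: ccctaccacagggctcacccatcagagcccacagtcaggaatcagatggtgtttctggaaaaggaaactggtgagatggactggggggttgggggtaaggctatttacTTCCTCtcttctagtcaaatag
The table held all 6 members, and the search covered 250 bases before to 50 after each start, on both strands. The PU.1 core began at base -55 of Fcgr1, -15 of Fcgr3 and -22 of Fcgr4, and was in 27.7% of the 19409 promoters of the table. The letters GAGGAA were not in the windows of Fcgr2b, Fcer1g and Fcgrt. The gamma-interferon site began at base -109 of Fcgr1 and was in 8.2% of promoters. Fcgr4 held a match to the interferon-stimulated response element, searched as GAAANNGAA, at base -73, and 8.2% of promoters held one. A match to the NF-kB motif, searched as GGGNNTTTC, stood at base -161 of Fcgr3, as in 4.3% of promoters. These matches describe letters, and no binding was measured.

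The deposited values were read as scaled TPM, a share of all transcripts corrected for their length, averaged over the transcripts of a gene. The number of reads per sample is unknown. Protein-coding genes held 21.6% to 29.0% of the summed value in untreated and 50.6% to 60.0% in LPS samples, so the differences of the members are also given after scaling to the protein-coding total. That scaling moved the median log2 difference of the 9403 genes with a mean of at least 1 from 0.13 to -0.22. Cgas itself was low in every sample, at 0.203, 0.307 and 0.180 in untreated and 0.184, 0.0713 and 0.0286 in LPS samples, with no wild-type level to set beside them. Neutrophil markers were abundant, with 11 of the 14 listed genes in the table, at summed values of 9646 to 27220 in untreated and 14886 to 49762 in LPS samples, although Cxcr2, the chemokine receptor of neutrophils, was at 86.5 ± 42.0 and 13.1 ± 9.10 (SD, n = 3 each). Markers of other cells that carry Fc receptors were present as well. The macrophage list summed to 177 to 286 and 322 to 441 (10 of 14 genes), the B cell list to 144 to 556 and 68.4 to 242 (7 of 9), the mast cell list to 25.7 to 85.1 and 83.1 to 132 (4 of 9), the dendritic cell list to 3.62 to 31.3 and 35.2 to 129 (6 of 6, and 1.38 to 6.23 and 1.69 to 4.14 without Ccr7) and the monocyte list to 7.18 to 18.1 and 2.34 to 7.05 (4 of 7). Of the macrophage genes, Cd68 made up most of the sum (166 ± 11.5 and 305 ± 75.8), C1qb was at 2.77 ± 2.02 and 19.8 ± 3.63, C1qa at 7.57 ± 10.8 and 10.3 ± 3.95, Mrc1 at 1.92 ± 0.684 and 0.868 ± 0.223 and Apoe at 55.4 ± 36.7 and 50.1 ± 23.3 (SD, n = 3 each). Hdc made up most of the mast cell sum (37.2 ± 14.1 and 74.0 ± 11.2), while Cpa3 was at 14.9 ± 19.6 and 20.2 ± 19.5 (SD, n = 3 each). The lists of T or NK cells (7 of 8), eosinophils (5 of 6) and endothelial cells (6 of 6) summed to less than 16 in every sample, with Epx and Tek at 0 throughout. In such bulk samples, fewer cells of a type and less RNA per cell cannot be told apart.

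The library numbered 2 stood apart in both groups. Against the mean of the other libraries of its group, the summed neutrophil markers, of which S100a8 and S100a9 make up most, were 2.79 times as high in untreated library 2 and 3.08 times as high in LPS library 2. Of the 11 neutrophil markers, 8 were highest in library 2 among untreated and 9 among LPS libraries, and 7 in both. Ngp, a protein of neutrophil granules, was 6.85 and 8.08 times the mean of the others, while the granule proteins Camp (0.0697 and 3.73) and Ltf (0.531 and 0.787), the receptor of G-CSF Csf3r (0.889 and 1.43) and the decoy receptor Il1r2 (1.42 and 0.887) did not stand higher in both. The summed B cell markers were 0.299 and 0.291 times and the dendritic cell markers 0.174 and 0.297 times the mean of the others. The macrophage sum was 0.655 and 1.18 times, the monocyte sum 0.549 and 0.396 and the mast cell sum 0.933 and 0.767. The eosinophil sum was 0.763 and 0.432 times, the T or NK cell sum 1.04 and 0.482 and the endothelial sum 1.31 and 1.36. Thus not every list of other cells was lower in library 2. Fcgr4 was 6.87 times as high in untreated library 2 and 4.75 times in LPS library 2, Fcgr3 4.77 and 2.32 times, Fcgr2b 2.41 and 2.34 times, and Fcer1g 1.34 and 1.74 times. The receptor genes of chromosome 1 were thus higher in both libraries, as were 7 of the 11 neutrophil markers, while Fcgr1 (0.243 and 1.27) and Fcgrt (0.448 and 1.38) were below the other untreated libraries and above the other LPS libraries. Each member is therefore given with and without the libraries numbered 2, and the part of cell makeup in the differences was not tested.

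**Figure D1:**
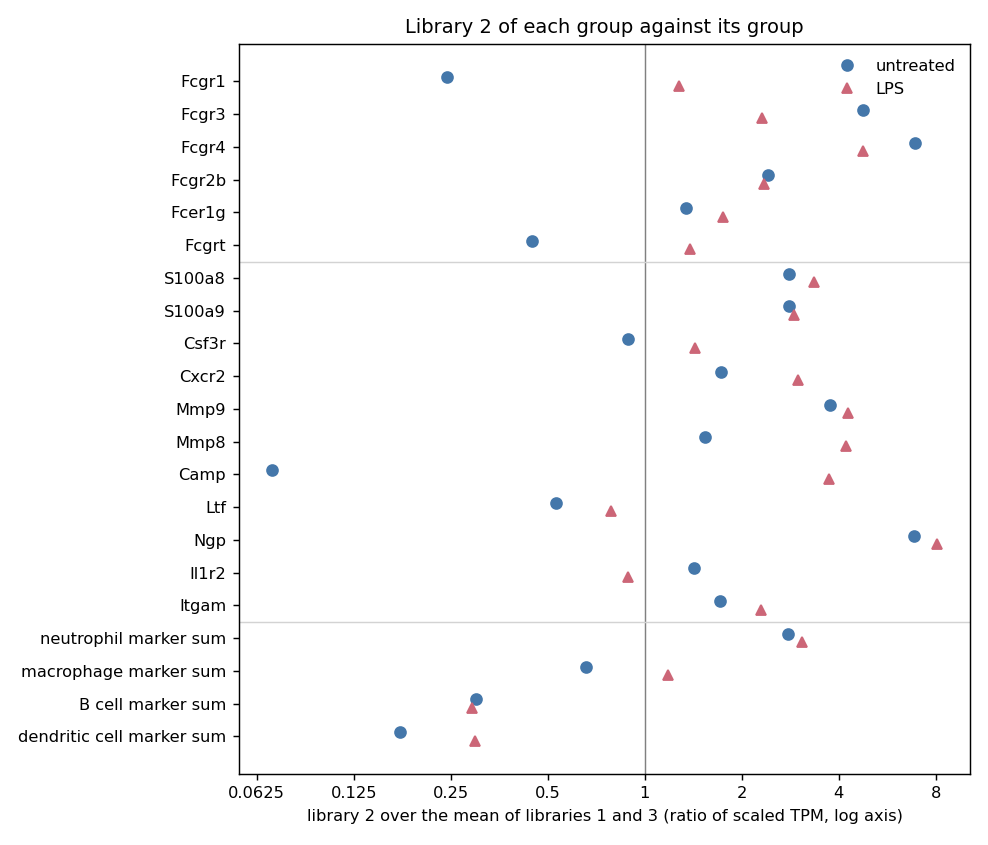
Value in library 2 of each group divided by the mean of libraries 1 and 3 of that group, on a log axis, for the 6 Fc receptor genes, 11 neutrophil markers and the summed values of 4 marker lists, with circles for untreated and triangles for LPS. Fcgr3, Fcgr4, Fcgr2b and Fcer1g lie to the right of 1 in both groups, as do 7 of the 11 neutrophil markers. Camp, Ltf, Csf3r and Il1r2 do not in both, and the B cell and dendritic cell sums lie to the left. The macrophage sum lies to the left in untreated and to the right in LPS libraries.

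None of the 6 genes passed the limits the study used, an unadjusted p below 0.01 together with a log2 difference larger than 2, where 1.69% of the 23049 genes tested were called higher after LPS and 1.31% were called lower. Fcgr2b, Fcgr3, Fcgr4 and Fcer1g had higher means after LPS and Fcgr1 and Fcgrt lower ones. No member passed an unadjusted p of 0.05 (16.9% of all genes did). LPS values lay wholly above the untreated ones in 0 of 6 members and in 13.1% of genes, and wholly below in 1 of 6 members, Fcgrt, and in 9.75% of genes. Without the libraries numbered 2, Fcgr2b, Fcgr3 and Fcgr4 passed the unadjusted p of 0.05 (21.4% of genes) and 0 of 6 were called (3.28% of genes). These libraries were left out after seeing the data, which left 2 libraries per group. They held the highest values of Fcgr2b, Fcgr3 and Fcgr4 in each group, so leaving them out narrowed the spread of these genes. The lowest adjusted p of a member was 0.325 with all libraries and 0.113 without those numbered 2.

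**Figure D2:**
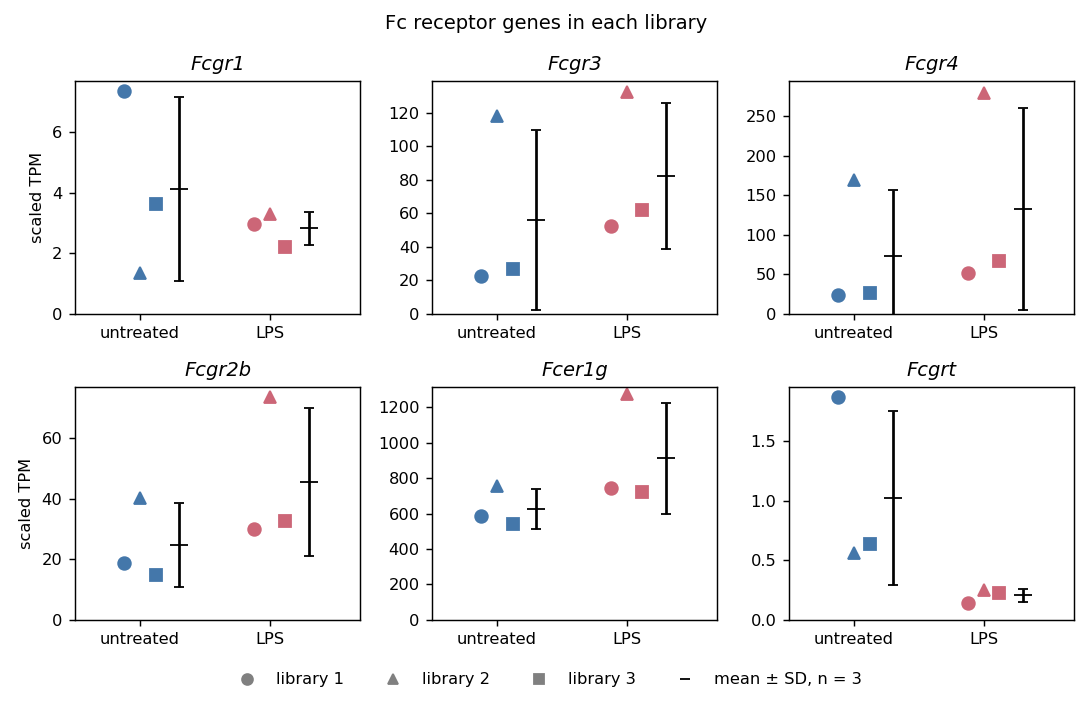
Scaled TPM of each gene in the 3 untreated and 3 LPS libraries (circle, triangle and square for libraries 1, 2 and 3), with the mean and SD of each group as a bar, the lower end of which is hidden at 0 for untreated Fcgr4. Library 2 is highest in both groups for Fcgr3, Fcgr4, Fcgr2b and Fcer1g, and Fcgrt is the gene whose groups do not overlap.

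Fcgr1 encodes the high-affinity receptor for monomeric IgG. Its value was 7.37, 1.34 and 3.63 in untreated libraries 1, 2 and 3, and 2.95, 3.29 and 2.21 in LPS libraries 1, 2 and 3. The untreated libraries enclosed the LPS libraries on both sides, and the spread was wider without LPS. The mean was 4.11 ± 3.04 (SD, n = 3) in untreated and 2.82 ± 0.550 (SD, n = 3) in LPS samples, a log2 difference of -0.24 (SE 0.52, 95% confidence interval -1.50 to 1.01, limma adjusted p = 0.808). Without untreated library 1, the highest of the 6, the difference turned to 0.20, and without the libraries numbered 2 it was -0.81 (SE 0.42, adjusted p = 0.421). Scaled to the protein-coding total it was -0.63 (SE 0.58, adjusted p = 0.571). The gene was thus low and no direction held across libraries.

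Fcgr3 encodes the low-affinity activating receptor Fc gamma RIII, which binds immune complexes. It stood at 22.7, 118 and 26.7 in the untreated and at 52.2, 132 and 62.0 in the LPS libraries. Both libraries numbered 2 were far above the rest, and untreated library 2 exceeded LPS libraries 1 and 3, so the groups overlapped. Means were 55.8 ± 53.8 and 82.2 ± 43.7 (SD, n = 3 each), with a log2 difference of 0.84 (SE 0.73, interval -0.93 to 2.61, adjusted p = 0.553). Without the libraries numbered 2, LPS libraries 1 and 3 were above untreated libraries 1 and 3, with a difference of 1.17 (SE 0.20, unadjusted p = 0.00859, adjusted p = 0.113). Scaled to the protein-coding total, the difference over all libraries was 0.36 (SE 0.61, adjusted p = 0.757). These values carry the uncertainty of reads shared with Fcgr2b.

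Fcgr4 encodes Fc gamma RIV, an activating receptor for IgG2a and IgG2b on neutrophils and other myeloid cells. The untreated libraries gave 23.5, 170 and 25.8 and the LPS libraries 51.4, 280 and 66.6. As a ratio to the mean of the other libraries, library 2 stood further above them than for any other member in both groups. From 73.0 ± 83.7 in untreated to 133 ± 128 in LPS samples (SD, n = 3 each), the log2 difference was 1.05 (SE 0.99, interval -1.36 to 3.46, adjusted p = 0.576). Without the libraries numbered 2 it was 1.21 (SE 0.22, unadjusted p = 0.00969, adjusted p = 0.118), under the limit of 2, and with all libraries scaled to the protein-coding total 0.57 (SE 0.85, adjusted p = 0.723).

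Fcer1g, the common gamma chain, had the highest value of the members in every library. Untreated libraries gave 586, 754 and 539 and LPS libraries 743, 1277 and 721. Untreated library 2 lay between the LPS libraries, and the other untreated libraries lay below all of them. Means were 626 ± 113 and 914 ± 314 (SD, n = 3 each), a log2 difference of 0.51 (SE 0.34, interval -0.33 to 1.34, adjusted p = 0.523). Without the libraries numbered 2 it was 0.38 (SE 0.17, adjusted p = 0.341), and after scaling to the protein-coding total 0.02 (SE 0.25, adjusted p = 0.978). The higher mean of Fcer1g therefore depended on how the samples were scaled.

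Fcgr2b, the inhibitory receptor, stood at 18.6, 40.4 and 14.8 in untreated and at 30.1, 73.6 and 32.7 in LPS libraries. LPS libraries 1 and 3 lay above untreated libraries 1 and 3 and below untreated library 2. The means of 24.6 ± 13.8 and 45.5 ± 24.4 (SD, n = 3 each) differed by 0.87 on the log2 scale (SE 0.53, interval -0.43 to 2.17, adjusted p = 0.470). Without the libraries numbered 2 the difference was 0.88 (SE 0.21, unadjusted p = 0.0214, adjusted p = 0.158), and scaled to the protein-coding total it was 0.39 (SE 0.41, adjusted p = 0.609). Fcgr2b is also a gene of B cells, whose summed markers were lowest in the libraries numbered 2 (144 untreated and 68.4 LPS), where Fcgr2b was highest. Not every marker followed the sum. Cd79b was 61.3, 111 and 175 in untreated libraries 1, 2 and 3 and 61.4, 17.3 and 61.1 in LPS libraries. The part of B cells in the Fcgr2b values was not tested.

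Fcgrt, the heavy chain of FcRn, was barely detected. It was 1.87, 0.561 and 0.639 in untreated and 0.141, 0.250 and 0.222 in LPS libraries. All 3 LPS libraries were below all 3 untreated libraries, the one member for which this held. The mean was 1.02 ± 0.731 in untreated and 0.205 ± 0.0566 in LPS samples (SD, n = 3 each), with a log2 difference of -0.69 (SE 0.31, interval -1.45 to 0.07, adjusted p = 0.325) on the scale of log2(value + 1), which understates a change at such low values. With 0.1 added in place of 1 the difference was -1.71, and scaled to the protein-coding total it was -0.86 (SE 0.36, adjusted p = 0.324). Its partner B2m was among the most abundant transcripts at 2374 to 6367 in untreated and 4081 to 4633 in LPS samples, with a log2 difference of 0.33 (SE 0.44, adjusted p = 0.697).

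**Figure D3:**
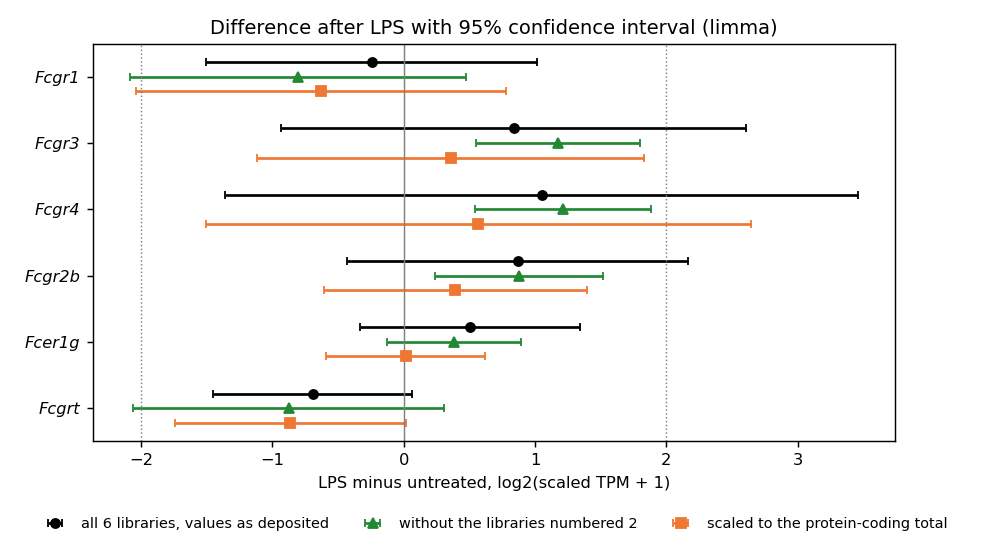
Log2 difference of LPS minus untreated for the 6 genes with 95% confidence intervals from limma, for all 6 libraries (circles), without the libraries numbered 2 (triangles) and after scaling to the protein-coding total (squares), with dotted lines at the limits of -2 and 2. Without the libraries numbered 2, which left 2 per group, the intervals of Fcgr3, Fcgr4 and Fcgr2b narrowed and lay above 0. No point passed a dotted line.

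The balance of activating and inhibitory receptors was read within each sample, where scaling cancels in the plain ratios given. The log2 differences and their tests used ratios with 1 added to each value. There scaling cancels only in part, and least at low values such as those of Fcgr1. Each value was read as a mean over the transcripts of its gene, and the genes differ in their number of transcripts. A ratio can therefore be compared between samples, but whether it is above or below 1 cannot be read as which receptor was more abundant. The ratio of Fcgr3 to Fcgr2b was 1.22, 2.92 and 1.80 in untreated and 1.73, 1.80 and 1.89 in LPS libraries. It differed by -0.03 on the log2 scale (two-sided exact permutation p = 0.9), and the LPS libraries lay within the untreated range. The ratio of Fcgr4 to Fcgr2b was 1.26, 4.20 and 1.74 against 1.71, 3.81 and 2.03, a difference of 0.18 (exact p = 0.8). Library 2 was highest for this ratio in both groups. Relative to the shared chain Fcer1g, the differences were -0.75 for Fcgr1 (exact p = 0.4), 0.36 for Fcgr2b (exact p = 0.3), 0.33 for Fcgr3 (exact p = 0.7) and 0.54 for Fcgr4 (exact p = 0.6). All 6 ratios overlapped between the groups and had an adjusted p of 0.9 over the 6 tests. With 3 samples against 3 the lowest p this test allows is 0.1, so it could not reach 0.05.

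To order the levels, the mean over transcripts was multiplied by the number of older Ensembl transcripts of the gene, an estimate of its summed TPM. The decimals of the values showed the division for Fcgr2b (7 transcripts), Fcer1g (3) and, in part, Fcgrt (6), but cannot show the 4 of Fcgr3, the 2 of Fcgr1 or the 1 of Fcgr4. Fcer1g came first, at 1878 ± 338 in untreated and 2741 ± 943 in LPS samples (SD, n = 3 each), and was 4.80 to 19.3 times the level of Fcgr3 in the same sample. Fcgr3 (223 ± 215 and 329 ± 175) and Fcgr2b (172 ± 96.4 and 318 ± 171) could not be ordered, since Fcgr3 was higher in 4 of 6 samples and their ratio ran from 0.697 to 1.67. On this estimate Fcgr2b exceeded Fcgr4 (73.0 and 133) in 6 of 6 samples, by 1.67 to 5.54 times. That order rests on the transcript numbers of 7 and 1, of which the 1 could not be checked. In the deposited values Fcgr4 was 1.26 to 4.20 times Fcgr2b, and GENCODE M39 lists 13 transcripts for Fcgr2b and 2 for Fcgr4. Fcgr4 exceeded Fcgr1 (8.22 and 5.64) in 6 of 6, by 1.60 to 63.4 times. Fcgr1 exceeded Fcgrt (6.13 and 1.23) in 5 of 6.

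Across the 6 samples the receptor genes of chromosome 1 varied together. Pearson's r of log2(value + 1), over 6 samples that share the libraries numbered 2, was 0.98 between Fcgr3 and Fcgr4, 0.96 between Fcgr2b and Fcgr4, 0.94 between Fcgr2b and Fcgr3, 0.97 between Fcgr2b and Fcer1g, 0.89 between Fcgr4 and Fcer1g and 0.84 between Fcgr3 and Fcer1g. Fcgr1 ran opposite to Fcgr3, with r = -0.73, and with Fcgrt, r = 0.70. Among 2850 or 2851 protein-coding genes with a mean of at least 5, the closest in pattern to Fcgr3 were Hk3, a hexokinase of myeloid cells (r = 0.998), and Spi1, which encodes PU.1 (0.996). For Fcgr2b they were Ctsd, a lysosomal protease (0.995), and Il1rn, the antagonist of the IL-1 receptor (0.993). For Fcgr4 they were Tet2, an enzyme that oxidizes methylated cytosine (0.984), and Fcgr3 itself (0.984). Tecpr1 and Taldo1, an enzyme of the pentose phosphate pathway, were closest to Fcer1g (both 0.977), and Yy1, a zinc finger transcription factor (0.989), and Cers2, a ceramide synthase (0.973), to Fcgr1. Among the genes searched, r was above 0.95 for 36 with Fcgr3, 22 with Fcgr2b, 22 with Fcgr4, 16 with Fcer1g and 10 with Fcgr1. High r values were thus not confined to the chromosome 1 members.

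The 19 other protein-coding genes between the chromosome 1 members or within 100 kb of them were tested, and 0 were called, where 1.69% of all genes were called higher and 1.31% lower. Of these 13 had higher and 6 lower means on the log2 scale after LPS, and 5 passed an unadjusted p of 0.05, as did 16.9% of all genes. With 0.1 added in place of 1, Apoa2 (3.37, adjusted p = 0.038) and Fcrlb (2.98, adjusted p = 0.112) were called higher. Fcrlb, an Fc receptor-like protein kept inside B cells, went from 0.175 ± 0.154 to 1.84 ± 0.745, a log2 difference of 1.25 (adjusted p = 0.118). Apoa2, an apolipoprotein, was listed at 0 in all untreated libraries and at 0.786, 1.25 and 0.826 in LPS libraries (adjusted p = 0.062). Dusp12, a phosphatase, went from 0.0421 to 1.08 (adjusted p = 0.211). Nr1i3, a nuclear receptor, was at 0 in untreated and at most 0.0486 in LPS libraries (adjusted p = 0.254). Dedd, a protein with a death effector domain, went from 10.8 ± 1.32 to 5.31 ± 1.12, a log2 difference of -0.91 (adjusted p = 0.183).

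The 4 groups of genes around the receptors gave 5 called genes. Over all genes tested, 1.69% were called higher and 1.31% lower, and the median log2 difference was 0.01. For the 9403 genes with a mean of at least 1 the median was 0.13. The shares of all genes with higher or lower values were not counted. Of the other Fc receptors and Fc-binding proteins, 12 of 14 were tested, 8 with higher and 4 with lower values, a median of 0.49, and 0 called. The largest differences with a mean of at least 1 were those of Fcer1a, the IgE-binding chain of mast cells and basophils (0.473 to 2.84, log2 difference 1.26, SE 0.60), Fcer2a, the low-affinity IgE receptor of B cells (2.93 to 6.17, 1.38, SE 0.95), Fcmr, the IgM receptor (16.2 to 5.98, -0.79, SE 1.07) and Fcrla (3.41 to 1.03, -0.59, SE 0.77). All 4 overlapped between the groups. Without untreated library 1 the direction of Fcmr turned, and without untreated library 3 that of Fcrla, and the mast cell and B cell marker sums beside these genes are given above.

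Of the ITAM adaptors, partners of the common gamma chain and B2m, 11 of 12 were tested, 10 had higher values, the median was 0.33 and 3 were called higher. Tarm1, a receptor of myeloid cells that pairs with the common gamma chain, was 14.0, 19.2 and 13.8 in untreated and 92.9, 131 and 86.1 in LPS libraries. It rose by 2.64 on the log2 scale (SE 0.31, adjusted p = 0.0219), stayed past the limits under all 17 alternatives, and had the lowest adjusted p of the list. Clec4e, which encodes Mincle, a lectin that senses mycobacterial glycolipid through the same chain, rose from 85.4 ± 43.2 to 449 ± 84.4 (SD, n = 3 each, log2 difference 2.49, SE 0.45, adjusted p = 0.057), and fell short of the limits after scaling to the protein-coding total (2.00, adjusted p = 0.154). Hcst, the adaptor DAP10, which recruits PI3-kinase and holds no ITAM, rose from 2.14 ± 1.11 to 16.6 ± 5.94 (2.50, SE 0.44, adjusted p = 0.0536), and its call was lost without the libraries numbered 2 (2.38, adjusted p = 0.145) and with a pseudocount of 5 (1.58, adjusted p = 0.0555). The adaptor Tyrobp, or DAP12, was at 724 ± 411 and 717 ± 246, a log2 difference of 0.17 (SE 0.62, adjusted p = 0.892). Of the listed receptors that pair with the gamma chain, only Tarm1 and Clec4e were thus called. The other listed receptors were not, nor was the gamma chain itself, Fcer1g. The difference between the called receptors and Fcer1g was not tested.

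Among genes of activating signalling below the receptors, 35 of 49 were tested, 21 with higher and 14 with lower values and a median of 0.13, and 1 gene was called, in the lower direction. Card9, an adaptor that carries signals from Syk-coupled receptors to NF-kB, was 19.5, 37.3 and 35.0 in untreated and 1.74, 3.74 and 1.73 in LPS libraries, and fell by 3.21 on the log2 scale (SE 0.41, adjusted p = 0.0262). The groups lay clear of each other, and the call held under all 17 alternatives. The kinase Syk was 43.0 ± 10.3 and 77.0 ± 26.3 (log2 difference 0.80, SE 0.36, adjusted p = 0.328), with its groups apart but no call. Grb2, an adaptor, reached a difference of 2.06 (26.7 to 95.8, SE 0.60, unadjusted p = 0.0133, adjusted p = 0.149), just outside the limits, and was called higher under quantile normalization (2.28) and without untreated library 2 (2.49). Lat2, a scaffold of myeloid and B cells, was at 22.1 and 5.16 (-1.58, SE 0.61, adjusted p = 0.262). Pik3r5, a regulatory subunit of PI3-kinase gamma, was at 8.26 ± 2.40 and 33.6 ± 18.5 (SD, n = 3 each, log2 difference 1.80, SE 0.48, adjusted p = 0.128), with its groups apart but under the limit of 2, and was past it without LPS library 1 (2.18). Grb2 shared 655 bases at 98.0% identity with Gm12791, so its value may hold reads of that copy.

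The list of inhibitory signalling below Fcgr2b and related brakes was drawn up by name. Whether each of its genes restrains or aids Fc receptor signalling in these cells was not tested. Of its 13 genes 11 were tested, 6 with higher and 5 with lower values, a median of 0.07 and 1 called. After scaling to the protein-coding total the median was -0.38. The medians were then 0.36 for the other Fc receptors, 0.18 for the ITAM adaptors and partners and 0.0073 for activating signalling. The same scaling moved the median of the 9403 genes with a mean of at least 1 from 0.13 to -0.22. Ptprj, a receptor-type phosphatase also named CD148, rose from 8.63 ± 7.31 to 57.6 ± 6.07 (SD, n = 3 each, log2 difference 2.86, SE 0.55, adjusted p = 0.0642). Its call was lost without untreated library 2 (2.69) or any 1 of the LPS libraries (2.78 to 2.92), where the difference stayed beyond 2 and the unadjusted p ran from 0.0108 to 0.012, and without the libraries numbered 2 (2.61, adjusted p = 0.222). It shared stretches of 300 to 888 bases with 5 other genes at 97.8% to 99.3% identity. Dok3, an adaptor that restrains ITAM signalling, was at 86.7 ± 19.7 and 31.6 ± 30.5 (-1.80, SE 0.66, adjusted p = 0.236) and was called lower without the libraries numbered 2 (-2.61, adjusted p = 0.0919). Ptpn11, the phosphatase SHP-2, was at 5.44 and 14.1 (1.53, SE 0.64) and Pag1, a membrane adaptor, at 28.6 and 11.7 (-1.18, SE 0.56), and neither was called, although Ptpn11 was called higher without untreated library 2 (2.14, adjusted p = 0.101). The phosphatases recruited by the ITIM of Fcgr2b were at 14.4 ± 3.19 and 9.26 ± 1.94 for Inpp5d, which encodes SHIP-1 (-0.58, SE 0.32, adjusted p = 0.417), and at 32.0 ± 14.6 and 49.2 ± 19.9 for Ptpn6, which encodes SHP-1 (0.63, SE 0.45, adjusted p = 0.551).

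**Figure D4:**
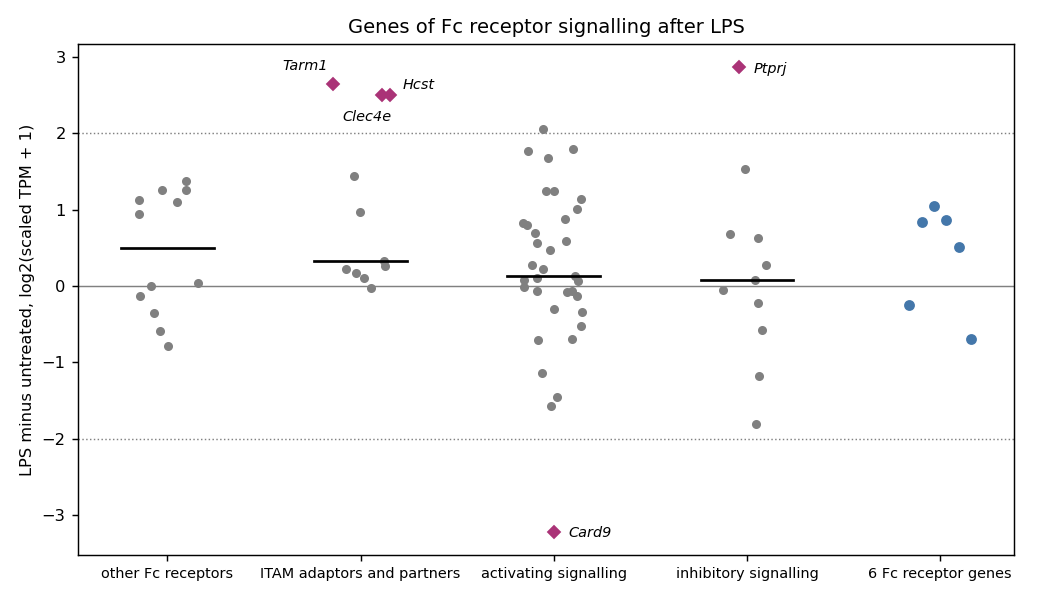
Log2 difference of LPS minus untreated for each tested gene of the 4 groups around the receptors and for the 6 Fc receptor genes, with diamonds for called genes, black bars for the group medians and dotted lines at -2 and 2. The called genes Tarm1, Hcst, Clec4e, Ptprj and Card9 lie past the dotted lines, Grb2 lies just past the upper line without a call, and the 6 receptor genes lie between -0.69 and 1.05.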

How the data were processed

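Values from 6 RNA sequencing libraries (3 untreated, 3 LPS) were read from 1 deposited table. The authors trimmed reads with fastp and quantified transcripts with kallisto, and their processing notes also name STAR and the builds GRCm39 and mm10. The deposited values, called normalized counts, looked like TPM averaged over a gene's transcripts and divided by 1 factor per sample, and were read as such. The study's methods describe normalized read counts. Decimals can show the averaging in 512 genes. In 466 of them (91.0%), the divisor read went evenly into the number of older Ensembl transcripts, which it need not equal. The share to be met with unrelated numbers was not computed. Read counts, and so depth, cannot be recovered. As the values were read as TPM despite the name, a test for normalized values was used.

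Of 38739 genes, the 23049 above 0 in at least 1 sample were fitted with limma 3.58.1 (R 4.3.3) on log2(value + 1), with a mean-variance trend, two-sided and with no covariates, and Benjamini-Hochberg adjustment over all of them. Called genes had p below 0.01 and a log2 difference beyond 2, limits taken from the study's methods. Ratios were compared on the log2 scale, with 1 added to each value, by exact permutation (scipy 1.17.1). Transcripts were compared with blastn 2.17.0, with stretches of at least 150 bases at 95% identity kept. The fit was tested on simulated data. Named genes were the 6 members, every called gene of each list, the 2 largest differences per direction with a mean of at least 1, neighbours within 100 kb on chromosome 1, and the 2 genes closest in pattern to each member. Fcrlb, Tyrobp, B2m, Syk, Inpp5d and Ptpn6 were given beyond that rule for their roles, and 1 gene of the lists is not reported here. Members, lists and tests were chosen with earlier results of these data known. Alternatives were other pseudocounts, a filter on the mean, 3 other scalings, no trend, a block on the replicate number and leaving out each library. Leaving out the libraries numbered 2 and joining the block with a scaling were chosen after seeing the data.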

Additional observations from a re-analysis of the deposited data

How the results depend on the processing

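All 6 members stayed outside the limits under each of 17 alternatives (16 for Fcgrt, which a mean of at least 1 removed), and 0 passed an adjusted p of 0.05. Their log2 differences kept direction except that of Fcgr1, which was 0.20 without untreated replicate 1. Over the fits without 1 library, the values ran from -0.72 to 0.20 for Fcgr1, 0.47 to 1.28 for Fcgr2b, 0.41 to 1.58 for Fcgr3, 0.30 to 1.96 for Fcgr4, 0.24 to 0.65 for Fcer1g and -0.85 to -0.41 for Fcgrt. Among ratios, Fcgr3 to Fcgr2b, -0.03 with all libraries, turned to 0.30 without untreated replicate 2, 0.0012 without LPS replicate 1 and 0.30 without the libraries numbered 2, and its fits without 1 library ran from -0.33 to 0.30. Fcgr4 to Fcgr2b turned to -0.18 without untreated replicate 1 and to -0.16 without LPS replicate 2, and ran up to 0.68. Fcgr3 to Fcer1g turned to -0.053 without untreated replicate 1 and ran up to 0.93. Among the named genes, Fcmr turned to 0.043 without untreated replicate 1 (range over the fits without 1 library -1.90 to 0.043), Fcrla to 0.24 without untreated replicate 3 (range -1.27 to 0.24), and Nr1i3 to -0.014 under median centring, with or without the block. The cause was not tested.

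Over all genes, 389 were called higher and 301 lower. The counts were 856 and 493 with a pseudocount of 0.1, 129 and 168 with a pseudocount of 5, and 218 and 514 after scaling to the protein-coding total. At an adjusted p of 0.05, 424 genes passed, against 1040 with a mean of at least 1, 1298 without the trend, 8 without LPS replicate 1 or 3 and 0 without the libraries numbered 2.

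The replicate numbers are not stated to mark shared mice. Deviations from the group means correlated at 0.0935, 0.199 and 0.0835 for samples with the same number, and each sample correlated best with its own number. With the replicate number as a block, 0 of 6 members were called, 387 genes were called higher and 303 lower, and 16 passed an adjusted p of 0.05. Fcgr2b (0.87, limma adjusted p = 0.288) and Fcgr4 (1.05, limma adjusted p = 0.22) then passed an unadjusted p of 0.05. The share of all genes that did so in this fit was not counted, so nothing is read from it.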
